A study of Mus musculus with 12 samples.

Results

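Enteroendocrine cells are the hormone-secreting cells of the gut epithelium. The 10 genes described here are 8 peptide hormone genes (Gip, Cck, Sct, Gcg, Sst, Ghrl, Nts and Tac1), Tph1, which encodes the enzyme that starts serotonin synthesis, and Chga, which encodes chromogranin A of the secretory granule. They were taken by symbol as a list, with earlier results of these data known, and are 10 of the 55421 genes in the count table. All 10 passed the filter on low counts, with 37 counts for Ghrl in its lowest library and 1358 for Gip in its highest.

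RNA sequencing counts came from mouse small intestine in 3 groups of 4 libraries. Apc Eif3h mice carried VilCreER with floxed alleles of both Apc and Eif3h, Apc mice carried VilCreER with floxed Apc alleles only, and WT mice were labelled wild type with no Cre named. VilCreER is a Cre recombinase driven by the epithelial villin promoter and activated by tamoxifen, so other cells keep their alleles. The protocol gives every mouse 2 injections of tamoxifen at 80 mg/kg, 24 hours apart. The samples are labelled day 4 in Apc Eif3h and Apc and day 7 in WT, whereas the protocol text gives 7 days for all, so in comparisons with WT the labelled day and the genotype cannot be told apart. Apc Eif3h held 4 males, and Apc and WT held 3 males and 1 female each. No label says that the libraries come from separate animals, so the p-values reflect only how these samples vary. Apc restrains Wnt signalling by helping to destroy beta-catenin, and Eif3h encodes a subunit of a translation initiation factor.

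Enteroendocrine cells arise from crypt progenitors that pass through a short Neurog3-expressing stage, then store peptides in dense-core granules and release them when nutrients or other signals reach the cell. Hormones differ in where along the gut they are made: Gip, Cck and Ghrl are best known from the proximal small intestine and Nts from the distal part. Enteric neurons share part of this programme, including Tac1, Sst and many granule proteins.

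Library totals were 10483112 to 21298301 counts. Eif3h averaged 38.0 ± 13.4 CPM in Apc Eif3h libraries, 166 ± 7.01 CPM in Apc libraries and 134 ± 6.60 CPM in WT libraries (SD, n = 4 each), in the direction of the labels. The epithelial marker Vil1 was at 1129 CPM or more in every library, and the colon markers Car1, Hoxb13 and Hoxd13 averaged 0.108 CPM or less in every group. Differences were tested with edgeR's quasi-likelihood test over 17394 genes with Benjamini-Hochberg adjustment, and a gene was called at an adjusted p below 0.05. Levels are CPM, counts scaled to a common library size with TMM factors, given in the order of replicates 1 to 4.

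The promoters of Gip and Sct are shown because these 2 hormones of the same peptide family differ in Apc against WT below. Gip had the largest fall of the 10 genes and Sct one of the smaller falls. Each sequence is the 250 bases before the RefSeq start on GRCm38.p6, with matches to the E-box CANNTG and to AGATAA (either strand) in capitals. The Gip promoter lies at chr11:96024295-96024544 on the plus strand and the Sct promoter at chr7:141279134-141279383 on the minus strand.
Gip: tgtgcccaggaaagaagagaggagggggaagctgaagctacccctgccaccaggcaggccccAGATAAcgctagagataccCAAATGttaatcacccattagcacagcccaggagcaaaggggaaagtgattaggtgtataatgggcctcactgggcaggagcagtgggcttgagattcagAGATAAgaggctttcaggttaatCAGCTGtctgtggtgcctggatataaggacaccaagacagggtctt
Sct: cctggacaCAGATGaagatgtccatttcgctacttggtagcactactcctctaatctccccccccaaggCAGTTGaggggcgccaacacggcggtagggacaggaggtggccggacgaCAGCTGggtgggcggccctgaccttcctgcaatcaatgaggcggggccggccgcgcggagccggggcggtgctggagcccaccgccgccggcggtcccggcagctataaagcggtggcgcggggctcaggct
Basic helix-loop-helix factors such as Neurog3 and Neurod1 bind E-boxes, and GATA factors bind sequences of the AGATAA type. Gip held 2 E-boxes and 2 AGATAA matches, and Sct held 3 E-boxes and 0 AGATAA matches. The 10 genes have 14 RefSeq promoter windows between them, some genes having several. An E-box stood in 10 of the 14, against 66.2% of all 32851 windows of the same length. AGATAA on either strand stood in 4 of the 14, 1 each of Gip, Cck, Nts and Tac1, against 9.99% of all windows. The cAMP response element TGACGTCA stood in 1 of the 14, that of Sst (1.55% of all windows), and the TCF/LEF-type sequence CTTTGAT, on either strand, in 1 of the 14, of Tph1 (3.21% of all windows). A match describes the sequence and is no evidence of binding.

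Per kilobase of exon, Gip was the most abundant of the 10 transcripts in each group, with a mean level of 62.2 ± 18.0 CPM per kb in Apc Eif3h, 42.6 ± 13.0 CPM per kb in Apc and 139 ± 17.1 CPM per kb in WT (SD, n = 4 each). It stood clear of the next gene, Sct, in Apc Eif3h and WT, whereas the libraries of both overlapped in Apc. Sct and Sst came next in each group, with overlapping levels. Tph1 and Tac1 were the lowest, at 2.26 and 1.69 CPM per kb in Apc Eif3h, 2.13 and 1.72 CPM per kb in Apc and 3.94 and 2.91 CPM per kb in WT, and overlapped each other. Gcg, eighth in Apc Eif3h and Apc, stood clear above Tph1 there, as did Ghrl, eighth in WT. Cck, Nts, Chga, Gcg and Ghrl took the middle places, and in each group each overlapped its neighbour among them.

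**Figure D1:**
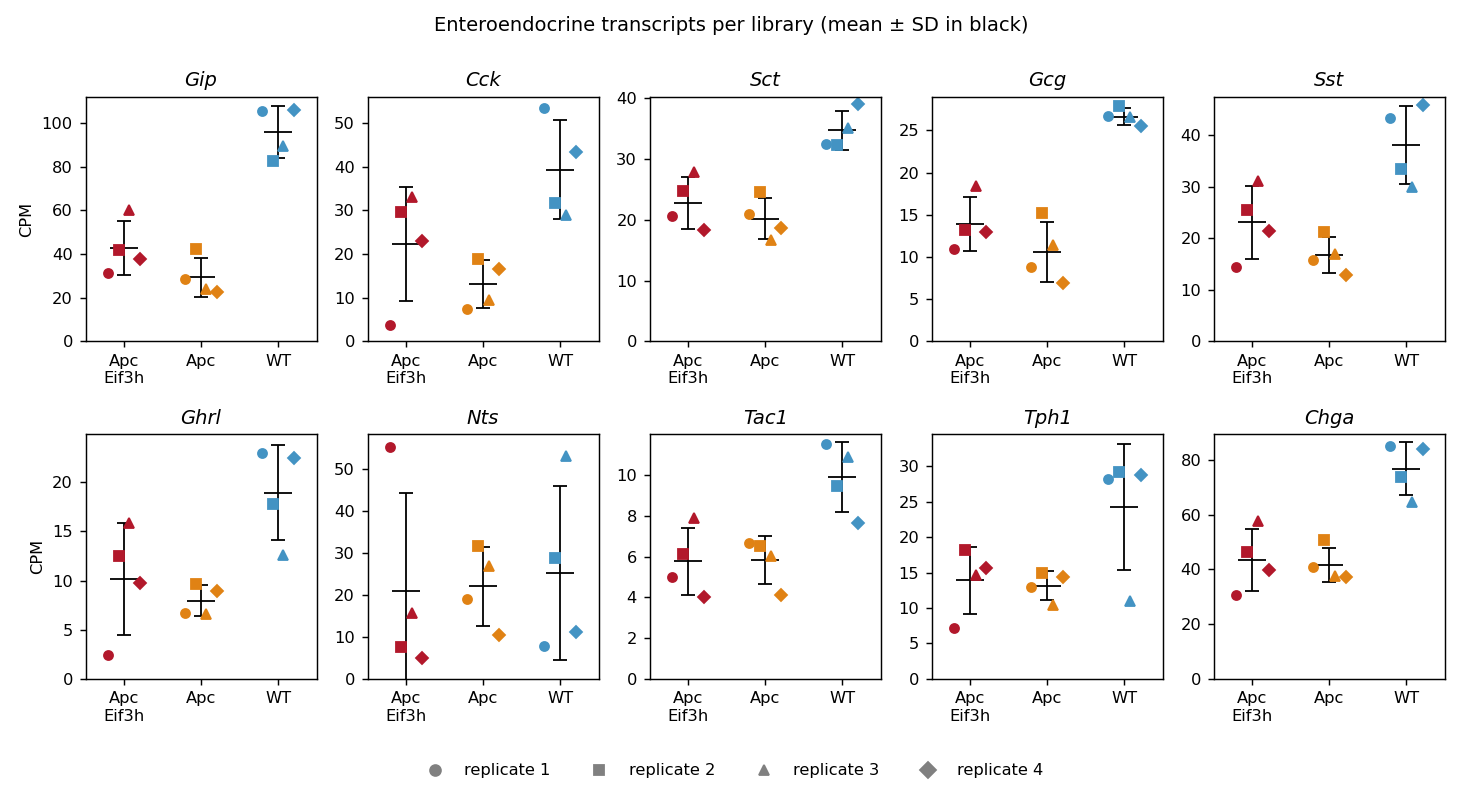
CPM after TMM scaling (y axis) of the 10 genes in each library, by group, with mean and SD in black (n = 4). Apc libraries lie below all WT libraries for 8 genes, whereas Tph1 and Nts overlap.

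In Apc libraries most of these transcripts were lower than in WT libraries, by 1.70-fold for Tac1 to 3.27-fold for Gip. In Apc against WT, 9 of the 10 genes fell, 0 rose, and Nts was not called. Among all genes tested 51.8% were called, 24.1% lower and 27.7% higher. The groups did not overlap for 8 of the 10, all lower, against 22% of all genes lower and 26.7% higher without overlap. The median log2 fold change was -1.04 over the 10 genes and -0.01 over all genes. CPM are relative to the other counts of a library, so absolute amounts of RNA were not measured. In bulk tissue, a smaller share of endocrine cells and less RNA per cell cannot be told apart.

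Gip, the incretin of K cells that raises insulin secretion after a meal, had 28.5, 42.1, 24.0 and 22.6 CPM in Apc libraries, against 105, 82.5, 89.3 and 106 CPM in WT libraries. Every Apc library lay below every WT library. Gip fell 3.27-fold (log2 fold change -1.71, SE 0.22, adjusted p = 7.54e-05 by edgeR), the largest fold among the 10.

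Cck, cholecystokinin, which contracts the gall bladder and stimulates pancreatic enzyme release, had 7.48, 18.9, 9.46 and 16.6 CPM in Apc libraries, against 53.5, 31.5, 29.0 and 43.3 CPM in WT libraries. All Apc libraries lay below all WT libraries. It fell 2.97-fold (log2 fold change -1.57, SE 0.49, edgeR adjusted p = 0.0170). Ghrl, which encodes the appetite hormone ghrelin, had 6.68, 9.62, 6.64 and 8.93 CPM in Apc libraries, against 22.9, 17.8, 12.6 and 22.5 CPM in WT libraries. The groups again did not overlap, with WT replicate 3 nearest to Apc. Ghrl fell 2.37-fold (log2 fold change -1.24, SE 0.39, edgeR adjusted p = 0.0178). The annotated genes Gm26982 and Gm44033 overlap Ghrl, and with the strand setting not given their reads and those of Ghrl cannot be told apart.

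Gcg, whose product is cut to the glucagon-like peptides in the gut, had 8.82, 15.2, 11.4 and 6.95 CPM in Apc libraries, against 26.7, 27.9, 26.5 and 25.5 CPM in WT libraries. All Apc libraries lay below the WT libraries, which had an SD of 1.01 CPM. Gcg fell 2.51-fold (log2 fold change -1.33, SE 0.21, edgeR adjusted p = 0.000322). Sst, somatostatin, which restrains the release of other hormones, had 15.9, 21.3, 17.0 and 12.8 CPM in Apc libraries, against 43.3, 33.5, 30.0 and 45.8 CPM in WT libraries. It fell 2.28-fold without overlap (log2 fold change -1.19, SE 0.23, edgeR adjusted p = 0.000972).

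Sct, secretin, which stimulates bicarbonate secretion by the pancreas, had 20.9, 24.6, 16.8 and 18.6 CPM in Apc libraries, against 32.5, 32.3, 35.2 and 39.1 CPM in WT libraries. The groups did not overlap, and the fall was 1.72-fold (log2 fold change -0.78, SE 0.15, edgeR adjusted p = 0.000901). Tac1, the precursor of substance P, had 6.68, 6.53, 6.04 and 4.10 CPM in Apc libraries, against 11.5, 9.47, 10.9 and 7.66 CPM in WT libraries. It fell 1.70-fold (log2 fold change -0.77, SE 0.22, edgeR adjusted p = 0.0117). Chga, present in most enteroendocrine types, had 40.8, 50.6, 37.6 and 37.4 CPM in Apc libraries, against 85.2, 73.7, 64.5 and 84.0 CPM in WT libraries. Its groups did not overlap, and it fell 1.85-fold (log2 fold change -0.89, SE 0.17, edgeR adjusted p = 0.00112).

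Tph1, found in the serotonin-producing enterochromaffin cells, had 12.9, 14.9, 10.4 and 14.3 CPM in Apc libraries, against 28.3, 29.3, 10.98 and 28.8 CPM in WT libraries. WT replicate 3 lay among the Apc libraries and the other 3 WT libraries lay above them. Tph1 fell 1.85-fold (log2 fold change -0.89, SE 0.31, edgeR adjusted p = 0.0286). Its call was lost, at adjusted p = 0.0592 to 0.0778, when WT replicate 1, 2 or 4 or Apc replicate 1 or 3 was left out.

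Nts, neurotensin, which promotes fat absorption and slows gut motility, had 19.0, 31.8, 27.0 and 10.5 CPM in Apc libraries, against 7.83, 28.9, 53.1 and 11.2 CPM in WT libraries. The groups overlapped throughout. The log2 fold change was -0.19 with a 95% interval from -1.76 to 1.37 (edgeR adjusted p = 0.836), which spans changes as large as those of the other genes. It changed sign when WT replicate 3 (0.46) or Apc replicate 4 (0.04) was left out.

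Losing Eif3h in addition was accompanied by no called change among the 10 genes. Of the 10 genes 0 were called in either direction by edgeR or DESeq2 in Apc Eif3h against Apc, and 1, Gip, had an unadjusted p below 0.05. Among all genes tested 7.05% were called, 4.27% higher and 2.78% lower. Beside so low a share, 0 of 10 says little about these genes in particular. The libraries of both groups overlapped for all 10 genes, against 7.89% of all genes higher and 7.26% lower without overlap. The estimates were positive for 8 genes and negative for 2, with a median log2 fold change of 0.26 over the 10 and of -0.002 over all genes. Apc Eif3h replicate 3 was the highest library of its group for Gip, Cck, Sct, Gcg, Sst, Ghrl, Tac1 and Chga. The 10 estimates share their libraries and are not separate observations.

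Gip had 31.3, 41.7, 60.1 and 37.7 CPM in Apc Eif3h libraries, against 28.5, 42.1, 24.0 and 22.6 CPM in Apc libraries. Apc replicate 2 lay among the Apc Eif3h libraries, and the other 3 Apc libraries lay below all of them. The log2 fold change was 0.54 with a 95% interval from 0.07 to 1.01 (unadjusted p = 0.0268, adjusted p = 0.153 by edgeR). Without Apc replicate 2 it was 0.77 (adjusted p = 0.0498).

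Sst had 14.4, 25.6, 31.1 and 21.4 CPM in Apc Eif3h libraries, against 15.9, 21.3, 17.0 and 12.8 CPM in Apc libraries. The log2 fold change was 0.46 with an interval from -0.02 to 0.95 (edgeR adjusted p = 0.234). Gcg had 10.9, 13.2, 18.4 and 13.0 CPM in Apc Eif3h libraries, against 8.82, 15.2, 11.4 and 6.95 CPM in Apc libraries. Its log2 fold change was 0.39 with an interval from -0.08 to 0.85 (edgeR adjusted p = 0.298). For both genes the highest library was Apc Eif3h replicate 3.

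Cck had 3.81, 29.5, 33.0 and 22.9 CPM in Apc Eif3h libraries, against 7.48, 18.9, 9.46 and 16.6 CPM in Apc libraries. Replicate 1 of Apc Eif3h was the lowest of these libraries and the other 3 lay above all Apc libraries. The log2 fold change of 0.76 had an interval from -0.29 to 1.81 (edgeR adjusted p = 0.372). Ghrl had 2.47, 12.5, 15.8 and 9.78 CPM in Apc Eif3h libraries, against 6.68, 9.62, 6.64 and 8.93 CPM in Apc libraries, with the same library lowest. Its log2 fold change was 0.34 with an interval from -0.50 to 1.19 (edgeR adjusted p = 0.643).

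Chga had 30.5, 46.2, 57.6 and 39.7 CPM in Apc Eif3h libraries, against 40.8, 50.6, 37.6 and 37.4 CPM in Apc libraries. The log2 fold change of 0.07 had an interval from -0.31 to 0.44. Sct had 20.6, 24.7, 27.9 and 18.3 CPM in Apc Eif3h libraries, and its log2 fold change of 0.18 had an interval from -0.14 to 0.49. These intervals exclude a doubling or a halving of either transcript. Those of Tac1 (log2 fold change -0.02, -0.51 to 0.47) and Tph1 (0.09, -0.58 to 0.76) also exclude both, whereas that of Nts (-0.09, -1.66 to 1.47) does not.

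**Figure D2:**
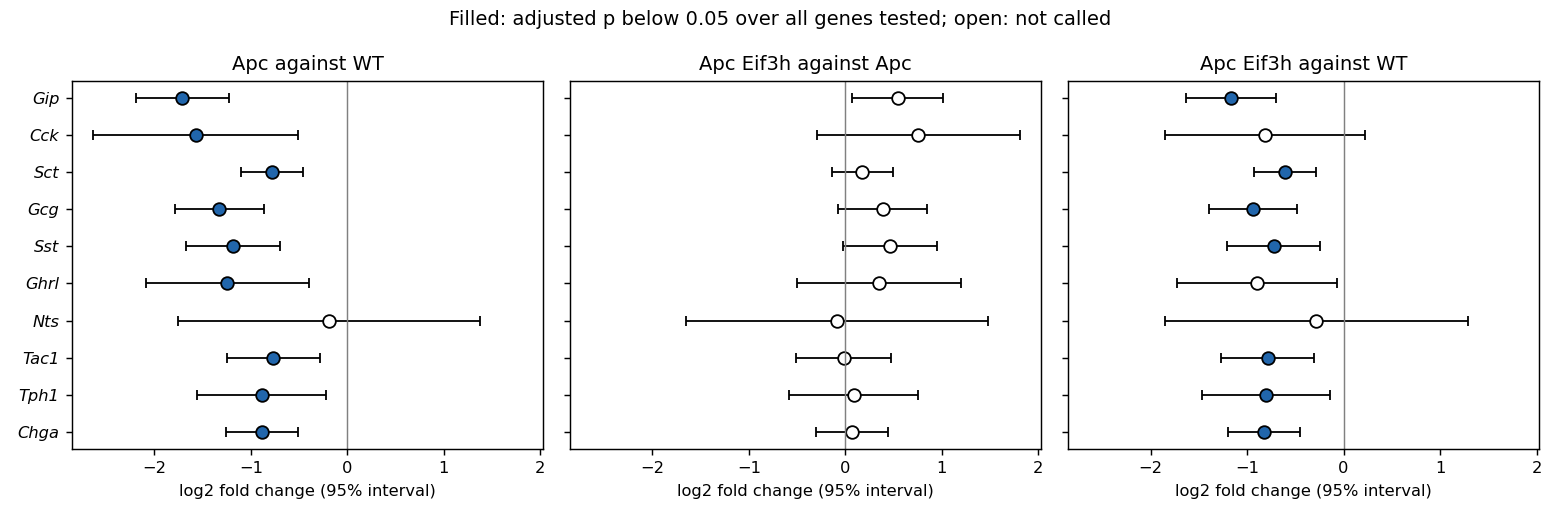
Log2 fold changes (x axis) of the 10 genes in the 3 comparisons, with 95% intervals; filled points are called at an adjusted p below 0.05 over all genes. In Apc against WT 9 points are filled, in Apc Eif3h against Apc 0, and in Apc Eif3h against WT 7.

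Against WT, the Apc Eif3h libraries had 7 of the 10 genes lower and 0 higher, with 57.8% of all genes called, 28.1% lower and 29.8% higher. For 4 genes, Gip, Sct, Gcg and Chga, the groups did not overlap, against 20.7% of all genes lower and 26.9% higher without overlap. The median log2 fold change was -0.81 over the 10 and -0.03 over all genes. These comparisons share libraries with the previous ones, and their values are set side by side only. The log2 fold change was -1.17 for Gip (SE 0.22, edgeR adjusted p = 0.000655), -0.94 for Gcg and -0.82 for Chga. It was -0.79 for Tac1, which had 5.01, 6.13, 7.88 and 4.02 CPM in Apc Eif3h libraries, and -0.72 for Sst and -0.61 for Sct. Tph1, at 7.15, 18.1, 14.7 and 15.7 CPM in Apc Eif3h libraries, had -0.80 (edgeR adjusted p = 0.0394), a call lost at adjusted p = 0.0566 to 0.0984 without WT replicate 1, 2 or 4 or Apc Eif3h replicate 1, 3 or 4. Cck (-0.82, adjusted p = 0.159 by edgeR), Ghrl (-0.90, adjusted p = 0.0610) and Nts (-0.28, adjusted p = 0.757) were not called. Ghrl was called without WT replicate 3 (-1.05, edgeR adjusted p = 0.0448) and without Apc Eif3h replicate 3 (-1.17, edgeR adjusted p = 0.0225), and by DESeq2 (adjusted p = 0.0295).

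The hormones were next set against Chga in the same library, which needs no scaling between libraries. Gip counts were 103, 90.2, 104 and 94.9% of Chga counts in Apc Eif3h libraries, 69.9, 83.3, 63.8 and 60.4% in Apc libraries and 123, 112, 138 and 126% in WT libraries. No library of one group reached the range of another, with Apc Eif3h between Apc and WT. The log2 ratio differed by -0.86 in Apc against WT, 0.51 in Apc Eif3h against Apc and -0.35 in Apc Eif3h against WT. Each difference had an exact two-sided permutation p of 0.0286, the smallest that 4 against 4 libraries allow, and adjusted values of 0.0857, 0.129 and 0.257 over 9 ratios per comparison. No ratio had an adjusted p below 0.05 in any comparison. With 9 ratios and this smallest p, an adjusted p below 0.05 needs at least 6 ratios at the smallest p, so a single separated ratio cannot pass in this design.

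Gcg and Sst were also lower relative to Chga in Apc against WT, by -0.50 and -0.30 on the log2 scale (exact permutation p = 0.0286 each, adjusted 0.0857). Sst relative to Chga differed by 0.39 in Apc Eif3h against Apc (exact permutation p = 0.0286, adjusted 0.129). The Sst ratio in Apc Eif3h lay at 47.2 to 55.3%, in Apc at 34.4 to 45.2% and in WT at 45.5 to 54.5%. The other ratios had exact permutation p-values of 0.0571 or more in each comparison. Sct, Tac1 and Tph1 differed relative to Chga by 0.23 or less on the log2 scale in size in each comparison.

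**Figure D3:**
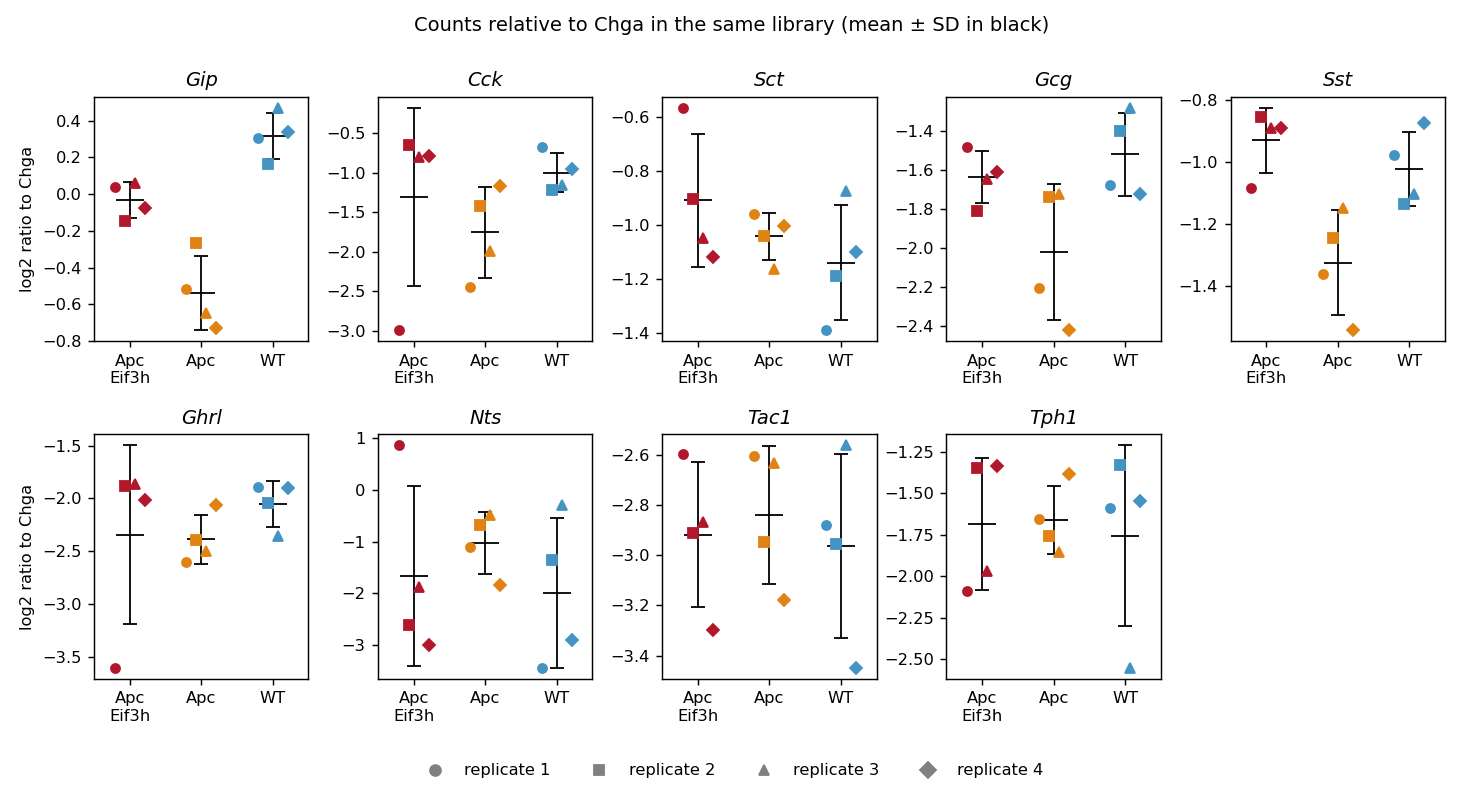
Log2 ratio of each gene's counts to those of Chga in the same library (y axis), by group, with mean and SD in black (n = 4). Gip separates the 3 groups, with Apc Eif3h between Apc and WT, and Nts spans the widest range.

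Among Apc Eif3h libraries Nts, Cck and Ghrl differed most, the highest library exceeding the lowest 11.2-fold, 8.66-fold and 6.40-fold, against 1.53-fold for Sct. In Apc the ratio was 3.04 for Nts, 2.53 for Cck, 2.18 for Gcg and 1.45 for Ghrl. In WT it was 6.79 for Nts, 2.67 for Tph1, 1.84 for Cck and 1.83 for Ghrl. Apc Eif3h replicate 1 had the highest Nts of its group, 55.5 CPM against 7.55, 15.7 and 4.96 CPM in replicates 2, 3 and 4, with the lowest Cck, Ghrl and Tph1. WT replicate 3 likewise had the highest Nts and the lowest Cck, Ghrl and Tph1 of its group. A score of markers of the proximal minus those of the distal small intestine (mean centred log2 CPM of 20 and 14 genes) was lowest in these 2 libraries, at -0.93 and -0.60, and at -0.36 to 0.79 in the other 10. Markers were centred over all libraries, not within groups. In Apc against WT 10 of the 20 fell and 3 rose, and 8 of the 14 fell and 1 rose. Scores of libraries from different groups therefore also carry differences between groups. Among Apc libraries the lowest score, -0.36 in replicate 1, went with the lowest Cck, and the highest Nts was in replicate 2. The part of tissue position in the differences between groups was not tested.

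After centring each group, Cck and Ghrl varied together over the 12 libraries (Pearson r = 0.97), as did Sst and Chga (r = 0.95) and Gip and Chga (r = 0.91). Nts ran opposite to Tph1 (r = -0.78), Ghrl (r = -0.70) and Cck (r = -0.68). These are descriptions over libraries that share tissue makeup and depth. Without the lowest-scoring library of each group, a choice made after seeing the data, 9 of the 10 genes fell in Apc against WT, 0 were called in Apc Eif3h against Apc and 7 fell in Apc Eif3h against WT. Of 17878 genes then tested, 3239 were lower and 3996 higher in Apc against WT. Only 133 were lower and 146 higher in Apc Eif3h against Apc, where 0 of 10 says little. In Apc Eif3h against WT 3848 were lower and 4408 higher. In the last comparison Ghrl was then called (log2 fold change -0.73, edgeR adjusted p = 0.0159) and Tac1 was not (adjusted p = 0.0668).

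**Figure D4:**
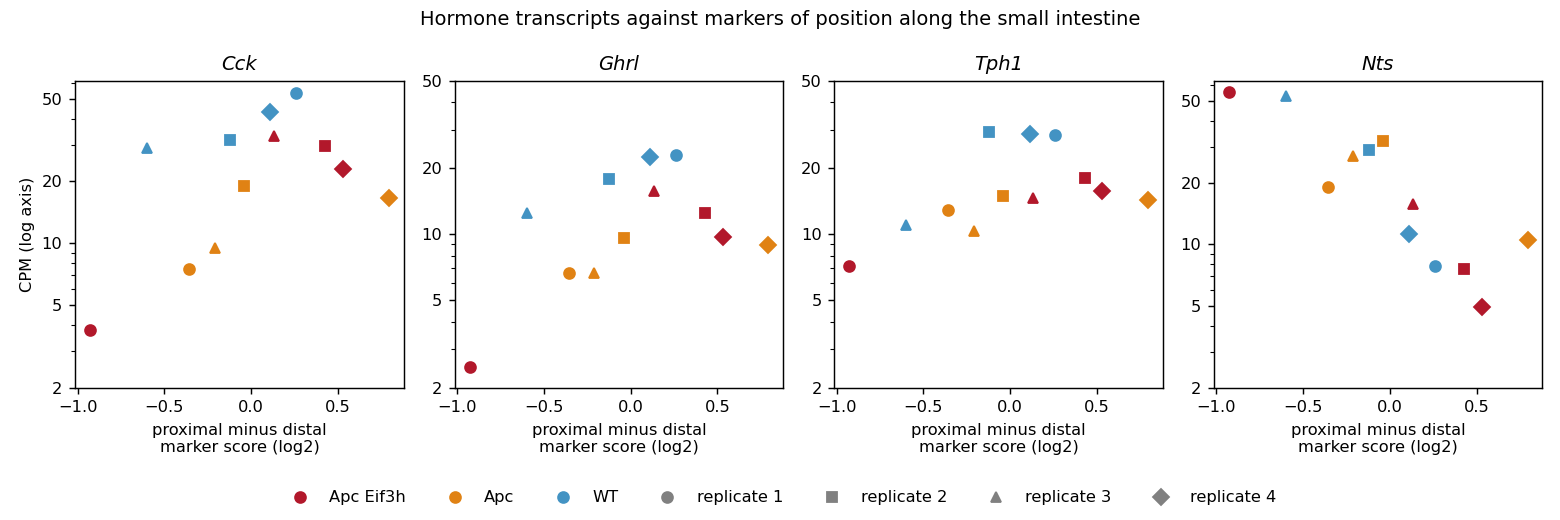
CPM on a log axis (y) of Cck, Ghrl, Tph1 and Nts against the proximal minus distal marker score (x, log2) in the 12 libraries, coloured by group. The library with the lowest score, -0.93 in Apc Eif3h, has the lowest Cck, Ghrl and Tph1 and the highest Nts of all 12. Scores were centred over all 12 libraries and also carry differences between groups.

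Among 12316 protein-coding genes compared over the 12 libraries, the closest to Gip were Aldh1a7 and Dusp23 (r = 0.98 each), and the closest to Gcg were Slc5a4b and Aldh1a7 (r = 0.98 each). Cck was closest to Aldh2 and Ghrl (r = 0.98 and 0.97). Nts was closest to Xpnpep2 (r = 0.92) and Osr2 (r = 0.89), and after centring each group to Guca2a (r = 0.96) and Susd2 (r = 0.95).

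Of 30 tested genes of granules and prohormone processing, 20 fell, 1 rose and 9 were not called in Apc against WT (median log2 fold change -0.65). Those that fell were 66.7% of the list, against 24.1% of all genes lower and 27.7% higher. Falls were not particular to endocrine lists. Of tested small intestinal markers, 57.1% of 14 distal, 50% of 20 proximal and 41.2% of 17 general epithelial genes also fell. In these lists 7.14%, 15% and 11.8% rose. Cpe, the carboxypeptidase that trims prohormones, averaged 38.1 ± 6.05 CPM in Apc and 87.0 ± 19.6 CPM in WT (log2 fold change -1.19, edgeR adjusted p = 0.000172). The granule protein gene Scg2 averaged 16.5 ± 3.09 CPM in Apc and 31.8 ± 0.95 CPM in WT (log2 fold change -0.94). Stx1a, a syntaxin of membrane fusion, was the 1 that rose, averaging 9.33 ± 1.71 CPM in Apc and 3.43 ± 1.03 CPM in WT (log2 fold change 1.44, edgeR adjusted p = 0.000393). Between Apc Eif3h and Apc, 1 of the 30 was called by edgeR (3 at an unadjusted p below 0.05, 2 by DESeq2). The gene called by edgeR was Rab3d, a GTPase of secretory granules, which fell to 23.5 ± 3.74 CPM in Apc Eif3h, against 40.3 ± 5.71 CPM in Apc (log2 fold change -0.78, edgeR adjusted p = 0.00669). Set against WT, Apc Eif3h had 23 of the 30 lower (76.7%, against 28.1% of all genes) and 1, Stx1a, higher.

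Of 23 tested transcription factors of the endocrine lineage, 8 rose and 5 fell in Apc against WT (median log2 fold change -0.07). These are 34.8% and 21.7% of the list, near the 27.7% higher and 24.1% lower among all genes. In Apc Eif3h against Apc 0 were called by edgeR (3 at an unadjusted p below 0.05, 1 by DESeq2). In Apc Eif3h against WT 10 rose and 6 fell, 43.5% and 26.1% of the list, against 29.8% and 28.1% of all genes. Sox4, which acts in progenitors, averaged 109 ± 17.5 CPM in Apc and 29.9 ± 7.14 CPM in WT (log2 fold change 1.86, edgeR adjusted p = 1.78e-05). Foxa1 and Foxa2 rose by 1.80 and 1.25 on the log2 scale. Neurog3, the factor that commits progenitors to the endocrine fate, named here after its values were seen, averaged 5.16 ± 0.63 CPM in Apc and 1.69 ± 0.40 CPM in WT (log2 fold change 1.59, edgeR adjusted p = 9.14e-05). The 5 that fell were Etv1 (-1.06), Isl1 (-1.09), Fev (-0.98), Mlxipl (-0.69) and Neurod1 (-0.49), of which Isl1, Fev and Neurod1 are known from maturing endocrine cells.

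Of 13 other gut peptide genes tested, 5 fell and 1 rose in Apc against WT (median log2 fold change -0.57). These are 38.5% and 7.69% of the list, against 24.1% lower and 27.7% higher among all genes. Those that fell were Nmu (-1.95), Ucn3 (-2.17), Vip (-0.82), Gal (-1.19) and Guca2b (-1.004), of which Vip and Gal are made by enteric neurons. Edn1, endothelin, rose by 1.17. By edgeR 0 of the 13 were called in Apc Eif3h against Apc (4 at an unadjusted p below 0.05, 1 by DESeq2), and in Apc Eif3h against WT 6 fell and 1 rose (28.1% lower and 29.8% higher among all genes).

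Around serotonin, 7 of 15 tested genes fell and 1 rose in Apc against WT (median log2 fold change -0.42). These are 46.7% and 6.67% of the list, against 24.1% lower and 27.7% higher among all genes. Ddc, which completes serotonin synthesis, averaged 105 ± 31.5 CPM in Apc and 347 ± 24.7 CPM in WT (log2 fold change -1.72, edgeR adjusted p = 0.000225). The serotonin transporter gene Slc6a4 fell by 1.17 on the log2 scale, and Htr4, which encodes a serotonin receptor, rose by 1.99. By edgeR 1 of the 15 was called in Apc Eif3h against Apc (7 at an unadjusted p below 0.05, 3 by DESeq2). The gene called by edgeR was Maoa, which encodes a serotonin-degrading enzyme, at 882 ± 81.3 CPM in Apc Eif3h and 481 ± 195 CPM in Apc (log2 fold change 0.87, edgeR adjusted p = 0.0409). Against WT, Apc Eif3h had 5 of the 15 lower, 33.3% against 28.1% of all genes, and 0 higher. Ddc and Maoa are also expressed by enterocytes.

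Of 22 genes by which endocrine cells sense nutrients and other signals, 13 fell and 0 rose in Apc against WT (median log2 fold change -0.87), the falls being 59.1% of the list against 24.1% of all genes. In Apc Eif3h against Apc 0 were called by edgeR (4 at an unadjusted p below 0.05, 0 by DESeq2), and in Apc Eif3h against WT 12 fell, 54.5% against 28.1% of all genes. Examples in Apc against WT were Abcc8, a subunit of the ATP-sensitive potassium channel (-1.27), Trpc4 (-1.17) and Agtr1a (-1.19). The list also held the far more abundant Slc5a1, averaging 1430 CPM in Apc and 3597 CPM in WT, and Slc15a1, averaging 297 and 586 CPM. Genes of this list need not be particular to endocrine cells, and which cells their reads came from was not tested. Of 11 hormone receptor genes tested, 4 fell in Apc against WT, namely Glp1r (-1.33), Sstr5 (-1.52), Glp2r (-0.50) and Npy1r (-1.14). DESeq2 called 3, and the 4 are 36.4% of the list, against 24.1% of all genes lower. By edgeR 0 of the 11 were called in Apc Eif3h against Apc (2 at an unadjusted p below 0.05, 1 by DESeq2), and in Apc Eif3h against WT 7 fell (5 called by DESeq2), with 28.1% of all genes lower.

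**Figure D5:**
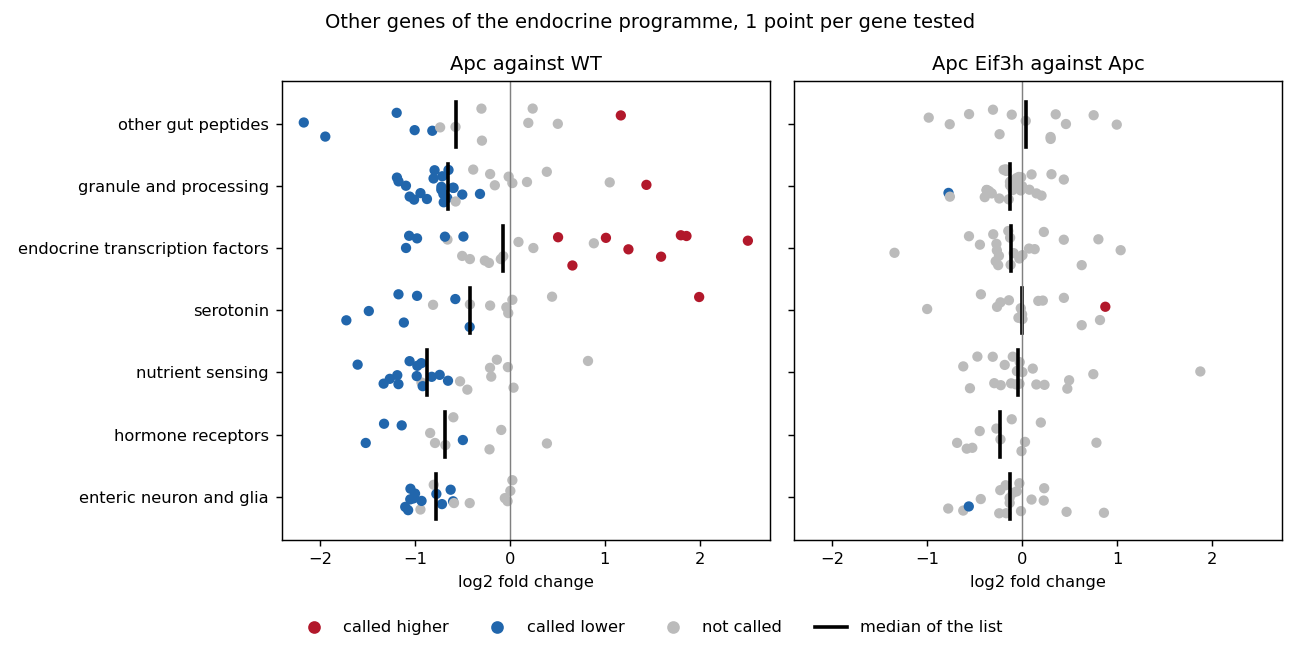
Log2 fold change (x axis) of each tested gene of the 7 lists named at left, in Apc against WT and in Apc Eif3h against Apc, with called genes coloured and the list median as a bar. Calls are those of edgeR, by which only Rab3d, Maoa and Ednrb are called on these lists in Apc Eif3h against Apc.

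Of 19 tested markers of enteric neurons and glia, 11 fell and 0 rose in Apc against WT (57.9% lower, against 24.1% of all genes). In Apc Eif3h against Apc 1 fell by edgeR (Ednrb, -0.56), with 4 at an unadjusted p below 0.05 and 1 called by DESeq2. In Apc Eif3h against WT 15 fell (78.9%, against 28.1% of all genes). The summed level of all 22 listed was 72.0 to 75.8 CPM in Apc Eif3h, 82.4 to 94.9 CPM in Apc and 116 to 136 CPM in WT. Without Ednrb and Ret, left out after their values were seen, it was 37.6 to 46.5 CPM in Apc Eif3h, 39.9 to 50.9 CPM in Apc and 72.5 to 95.6 CPM in WT, so that Apc Eif3h and Apc overlapped and both lay below WT. Uchl1, Prph and Stmn2, neuronal genes, had log2 fold changes of -0.93, -1.05 and -1.10 in Apc against WT. Villin-driven Cre does not act in these cells, and their part in the falls of Tac1, Sst and the granule genes was not tested. Of 12 listed mast cell markers 5 passed the filter on low counts. Cpa3, Mcpt4, Tpsb2, Tpsab1, Cma1, Fcer1a and Ms4a2 did not. Of the 5 tested, 0 were called in Apc against WT by edgeR or DESeq2 (0 at an unadjusted p below 0.05). In Apc Eif3h against WT 2 of the 5 fell (Kit, -0.47, and Hdc, -0.94), 40% against 28.1% of all genes. Of 18 pancreatic islet and acinar markers 3 passed the filter on low counts, and 0 were called in any comparison by edgeR or DESeq2 (1 at an unadjusted p below 0.05, in Apc against WT). Clps, pancreatic colipase, averaged 42.7 CPM in Apc Eif3h, 69.5 CPM in Apc and 60.2 CPM in WT. Cela1 averaged 9.72, 12.4 and 10.5 CPM in Apc Eif3h, Apc and WT, and Iapp 0.93, 0.75 and 1.25 CPM. The summed level of the 18 was 32.1 to 73.2 CPM in Apc Eif3h, 58.0 to 108 CPM in Apc and 37.6 to 105 CPM in WT, with Ins2, Ppy, Slc30a8, Prss1 and Amy2a5 at 0 counts in all 12 libraries. The part of these cells in the results was not tested.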

How the data were processed

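Per the labels, total RNA from small intestine was sequenced as paired reads of 36 cycles from TruSeq libraries. The authors deposited whole-number counts per gene, not normalized, for 12 libraries. FastQC 0.11.8, Trim Galore 0.6.4, HISAT2 2.1.0, featureCounts 1.6.4 and build GRCm38 are named per the submitters' processing notes; for strand and multi-mapping reads the settings were not given in the sources used here.

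Groups were taken from sample titles. Of 55421 identifiers, 55240 matched GENCODE M21, the source of symbols and exon lengths. Counts were fitted with edgeR 4.0.16 under R 4.3.3 (genes kept by filterByExpr, TMM factors, a quasi-likelihood model of all 12 libraries with 1 mean per group), adjusting p-values over the 17394 genes tested. Standard errors are the absolute log2 fold change over the square root of F. Log2 ratios to Chga added 0.5 to each count and were tested by exact permutation. Scores and correlations rest on log2 CPM (prior count 2). The spread between libraries, not counting error, sets the precision. The fitting was tested on simulated data with far fewer changed genes than were called against WT. This simulation therefore does not check the scaling in comparisons with WT.

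The genes and the 14 gene lists were chosen with earlier results of these data known. All 10 genes were named, with up to 3 called genes of smallest p per list, all genes of a count of 5 or fewer, and the 2 genes closest in correlation. Alternatives were DESeq2 1.42.0, other scaling, no count filter, males only, a sex term, a replicate block, 2 groups only, each library left out, and, for ratios, a summed granule reference and an added count of 2.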

Additional observations from a re-analysis of the deposited data

Results flagged for a closer look

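Tph1 in WT replicate 3, at 10.98 CPM, lay far below the other 3 WT libraries, the nearest of which was at 28.3 CPM, a gap of 0.946 of the range of the group. This comparison of the extreme library with its group was made for each gene and group, and chance marks about 1 in 20 groups.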

How the results depend on the processing

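The falls of Gip, Sct, Gcg and Chga against WT were called under every alternative run, in Apc and in Apc Eif3h; Tph1 was the least stable call, lost in 7 of 17 alternatives in Apc against WT and in 11 of 17 in Apc Eif3h against WT. The genes that fell numbered 6 to 9 in Apc against WT and 5 to 8 in Apc Eif3h against WT, 6 and 5 with males only, where Cck, Ghrl and Tph1 lost their call in Apc and Sst and Tph1 in Apc Eif3h. With library totals in place of TMM they numbered 7 and 6, the median of all genes moved to 0.22 and 0.17, and 74.0% and 67.5% of calls were higher, against 53.5% and 51.5% with TMM. That share in Apc Eif3h against Apc was 49.8%, against 60.6%.

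Between Apc Eif3h and Apc, 1226 genes were called, 817 without the count filter, 659 in males only, 279 without the 3 libraries of lowest position score, 1775 by DESeq2 and 406 to 1767 with 1 library left out (406 without Apc replicate 3). Of the 10 genes 0 to 1 were then higher, the 1 being Gip without Apc replicate 2. The cause was not tested.

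Directions of uncalled values were unstable. With 1 library left out, log2 fold changes in Apc Eif3h against Apc ran from -1.25 to 0.25 for Nts, -0.19 to 0.13 for Tac1, -0.0620 to 0.30 for Tph1 and -0.0793 to 0.20 for Chga. For Nts they ran from -0.49 to 0.46 in Apc against WT and from -1.44 to 0.37 in Apc Eif3h against WT. Nts in Apc against WT was 0.0445 with library totals and 0.52 without the 3 libraries. Tac1 in Apc Eif3h against Apc was 0.0448 in males and 0.10 without the 3 libraries.

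No ratio to Chga had an adjusted p below 0.05, so signs were not called. Those that changed sign follow. With summed granule genes in place of Chga they were -0.00787 (Sct) and -0.0122 (Tph1) in Apc against WT, and -0.0427 (Sst), -0.0916 (Tac1) and -0.0660 (Tph1) in Apc Eif3h against WT. In males Tac1 was -0.12 in Apc against WT, 0.00316 in Apc Eif3h against Apc and -0.12 in Apc Eif3h against WT, and Ghrl was -0.0258 in Apc Eif3h against Apc. With 1 library left out, the ratio in Apc against WT ran from -0.17 to 0.23 for Tph1 and -0.0417 to 0.25 for Tac1. For Apc Eif3h against Apc it ran from -0.11 to 0.47 for Ghrl, -0.19 to 0.0503 for Tac1 and -0.14 to 0.11 for Tph1. For Apc Eif3h against WT it ran from -0.50 to 0.91 for Nts, -0.20 to 0.21 for Tph1, -0.12 to 0.18 for Tac1, -0.53 to 0.25 for Cck and -0.45 to 0.13 for Ghrl.

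Replicate numbers are shared between groups, but same-numbered libraries deviated together with correlations of only -0.14 to 0.24, so the numbers are not taken as pairing. With a replicate block 8759 genes were called in Apc against WT, 993 between Apc Eif3h and Apc and 9853 in Apc Eif3h against WT, and of the 10 genes 9, 0 and 7 were lower in these.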
